A study of Mus musculus with 30 samples.

Results

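Skin of a mouse with collagen-induced arthritis (CIA) was compared with skin of a healthy mouse by single-cell RNA sequencing. The comparison rests on 2 of the 30 pilot libraries, 1 per state, chosen by their labelled organ and disease state. They hold 308 of 8282 barcodes, 158 from healthy mouse H6 and 150 from CIA mouse S1. Both mice were male DBA1/J, and the study's methods give an age of 8 to 12 weeks for all mice. S1 had received 100 µg of bovine collagen II in complete Freund's adjuvant, with a booster in incomplete adjuvant on day 20, and had an arthritis score of 8. H6 had a score of 0, and by the study's methods control mice received phosphate-buffered saline. The immunization was given into the skin near the tail base, and the sources used here do not say from which site the skin was taken. Skin pieces had been frozen, thawed and digested with enzymes before loading on Seq-Well arrays, where cells and barcoded beads share small wells. The title of the healthy library ends in CIA and that of the arthritic mouse in 2CIA, a suffix the labels do not explain, so that disease state, mouse and suffix cannot be told apart in skin.

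Skin is built of a layered epidermis over a collagen-rich dermis. Basal keratinocytes divide and are anchored to the basement membrane, spinous cells leave the cycle and switch their keratins, and granular cells lay down the cornified barrier. Hair follicles with their sebaceous glands, whose cells make lipids, grow down from the epidermis, and dermal fibroblasts make collagens, small proteoglycans and the proteases that remodel them. Genes were read in lists that follow this architecture, for the epidermis, the follicle and the dermis, with further lists for other cells and for pathways that all cells share.

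The healthy library held 1826565 summed units with 11937 genes above 0, and the CIA library 1419505 units with 11021 genes. A unit is a value of the deposited signal, in which each barcode had been summed with its nearest neighbours, and levels are given as units per 1000000 (UPM) of a library. Smoothing left 68 distinct profiles among the healthy barcodes and 62 among the CIA barcodes. The libraries shared 2 barcode sequences and 0 profiles. A value of 0 is described as listed at 0. Differences are CIA minus healthy on the log2(UPM + 10) scale, which understates the change of low genes, and a gene with a mean of at least 25 UPM was counted as higher or lower past a 2-fold difference, 1 on that scale. With 1 library per state there are no replicates, no error and no test, and every difference is a difference between these 2 libraries. In bulk sums of this kind, more cells of a type and more RNA per cell cannot be told apart.

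Of 5625 genes past the filter, 691 (12.3%) were higher and 721 (12.8%) were lower in CIA skin, with a median difference of -0.01. These shares are the background against which the lists are read. Libraries of the same mouse and organ that differ in suffix were compared in the same way. Between the 2CIA and CIA libraries, 25.2% of genes were higher and 19% lower in blood of H4, 25.4% and 34.8% in joint of S1, 16.3% and 18.2% in lymph node of H4, and 12.4% and 6.84% in lymph node of S7. The spread between 2 libraries of 1 mouse was therefore at least as large as the shares in skin in 3 of these 4 pairs. The blood and joint pairs were less alike in size than the skin pair. Blood of H4 had 11142 genes above 0 in the CIA and 2495 in the 2CIA library. Joint of S1 had 3218 in the CIA and 16460 in the 2CIA library, so joint values of 0 in the CIA library come from the smaller library.

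**Figure D1:**
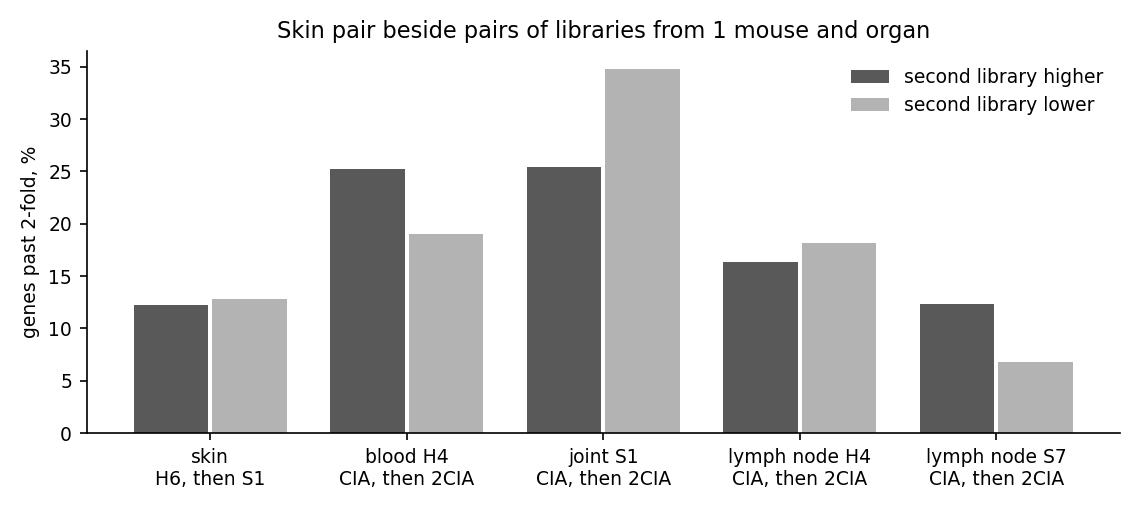
Share of genes past a 2-fold difference, in percent, for the skin pair and for 4 pairs of libraries that come from 1 mouse and organ and differ in title suffix. Dark bars are genes higher and light bars genes lower in the second library, and skin, at 12.3% and 12.8%, is not above the range of the same-mouse pairs.

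The skin label was borne out by the lists for the basal layer, the spinous layer and the sebaceous gland. The basal-layer genes summed to 5175 UPM in healthy and 2987 UPM in CIA skin, against at most 847 UPM in the 28 libraries of other organs. For the spinous layer the sums were 3812 and 1342 UPM, with at most 317 UPM elsewhere, and for the sebaceous gland 5980 and 7470 UPM, with at most 1896 UPM. Other epidermal and follicle lists did not all set skin apart. Hair matrix genes summed to 134 and 159 UPM in skin and up to 385 UPM elsewhere. Keratin-associated proteins summed to 10.4 and 11.3 UPM in skin and up to 46.1 UPM elsewhere. Epidermal defence stood at 1079 and 884 UPM in skin and up to 1059 UPM elsewhere. Markers of blood-derived cells were low or listed at 0, which for a smoothed signal does not show that the cells were absent. All 6 B-cell markers were listed at 0 in both skin libraries, T and NK markers summed to 50.9 and 51.4 UPM with Cd4, Cd8a and Trac at 0, and the 11 macrophage markers to 106 and 163 UPM with Adgre1, Csf1r and C1qa at 0.

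The epidermal programme was on balance lower in CIA skin. Of its 110 listed genes 91 had a row, 75 were above 0 and 46 passed the filter, of which 3 were higher and 14 lower past 2-fold, with a median difference of -0.53. The summed level went from 14497 to 8528 UPM. In the spinous layer 0 were higher and 3 lower of the 7 genes that passed, with a median of -0.99, which was -0.40 with each distinct profile counted once. All 7 lay below 0.

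Krt10, the type I keratin that marks the step from basal to spinous cells, stood at 249 UPM in healthy and 22.5 UPM in CIA skin, 11.0-fold lower. Among the barcodes, 92 in the healthy and 18 in the CIA library had a Krt10 value above 0. Its partner Krt1 stood at 68.4 and 29.6 UPM. Krtdap, a secreted protein of differentiating keratinocytes and the most abundant gene of the list, stood at 2687 and 717 UPM, 3.75-fold lower. Suprabasin (Sbsn) was at 65.7 and 15.5 UPM. Other spinous genes differed less, with dermokine (Dmkn) at 505 and 402 UPM and Lypd3 at 135 and 94.4 UPM. Granular and cornified genes were barely sampled. Of 15 with a row 9 were above 0 and 1 passed, Sprr1a at 178 and 123 UPM, a difference of -0.51 that was -1.96 without the sebaceous-high barcodes described later, while filaggrin (Flg) and involucrin (Ivl) were listed at 0 in both libraries.

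Among 10 basal-layer genes past the filter, 3 were lower and 0 higher past 2-fold, with a median of -0.57. Col17a1, the hemidesmosomal collagen that ties basal cells to the basement membrane, stood at 259 UPM in healthy and 46.5 UPM in CIA skin, 5.57-fold lower. Its hemidesmosome partner integrin alpha 6 (Itga6) was at 176 and 66.2 UPM. Sfn, a 14-3-3 protein of keratinocytes, stood at 2302 and 990 UPM, and lay within 2-fold (-0.68) with each distinct profile counted once. The basal keratins moved less than 2-fold, Krt14 from 787 to 533 UPM and Krt5 from 673 to 445 UPM, and integrin beta 1 (Itgb1) was at 471 and 515 UPM. The basal transcription factor Trp63 stood at 82.7 and 99.3 UPM.

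Cell-junction genes followed, with 3 of 12 lower, 0 higher and a median of -0.72. Occludin (Ocln), a tight-junction protein, stood at 84.9 and 18.3 UPM, connexin 43 (Gja1), which forms gap junctions, at 635 and 215 UPM, and E-cadherin (Cdh1), which holds epithelial cells together, at 230 and 76.1 UPM. Cdh1 lay just within 2-fold (-0.97) with each distinct profile counted once. The desmosomal genes Dsp, at 124 and 118 UPM, and Perp, at 483 and 379 UPM, and alpha-catenin (Ctnna1), at 269 and 290 UPM, lay within 2-fold. Keratins and growth factors of wounded epidermis did not move together. Ereg was at 50.4 UPM in healthy skin and listed at 0 in CIA skin and Krt16 at 88.7 and 27.5 UPM, but Krt6a stood at 40.0 and 55.7 UPM, Areg at 47.6 and 78.2 UPM and Hbegf at 425 and 326 UPM. Of this list 0 of 5 were higher and 2 lower, and Krt16 lay within 2-fold with each distinct profile counted once (-0.97) and with each barcode scaled to the same total (-0.90).

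Epidermal defence genes split by member. The protease inhibitor Slpi stood at 124 UPM in healthy and 24.0 UPM in CIA skin, the cysteine protease inhibitor Stfa3 at 242 and 70.4 UPM and the antimicrobial Defb6 at 109 and 38.7 UPM. Stfa1, a close relative of Stfa3, went the other way, from 55.3 to 127 UPM, and S100a16 stood at 152 and 287 UPM. In all 1 of 6 was higher and 3 were lower, with a median of -0.68 that ran from -1.37 without the sebaceous-high barcodes to -0.08 at a filter of 100 UPM. Stfa3 lay within 2-fold (-0.86) with each distinct profile counted once, and Defb6 (-0.97) and Stfa1 (0.93) did with each barcode scaled to the same total. The stefin genes lie in a cluster of similar copies, and how reads were divided among them was not analysed here. Of the genes for barrier lipids 2 of 5 were higher and 0 lower, with a median of 0.51. Ugcg, which makes glucosylceramide, stood at 30.7 and 94.4 UPM, Abhd5 at 85.4 and 125 UPM and Fa2h at 338 and 217 UPM. Elovl4, which builds very long fatty acids, stood at 50.4 and 389 UPM. By side, Ugcg stood at 70.7 and 238 UPM on the dermal and 17.5 and 27.9 UPM on the epithelial side, as defined later, and Elovl4 is described with the sebaceous gland.

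**Figure D2:**
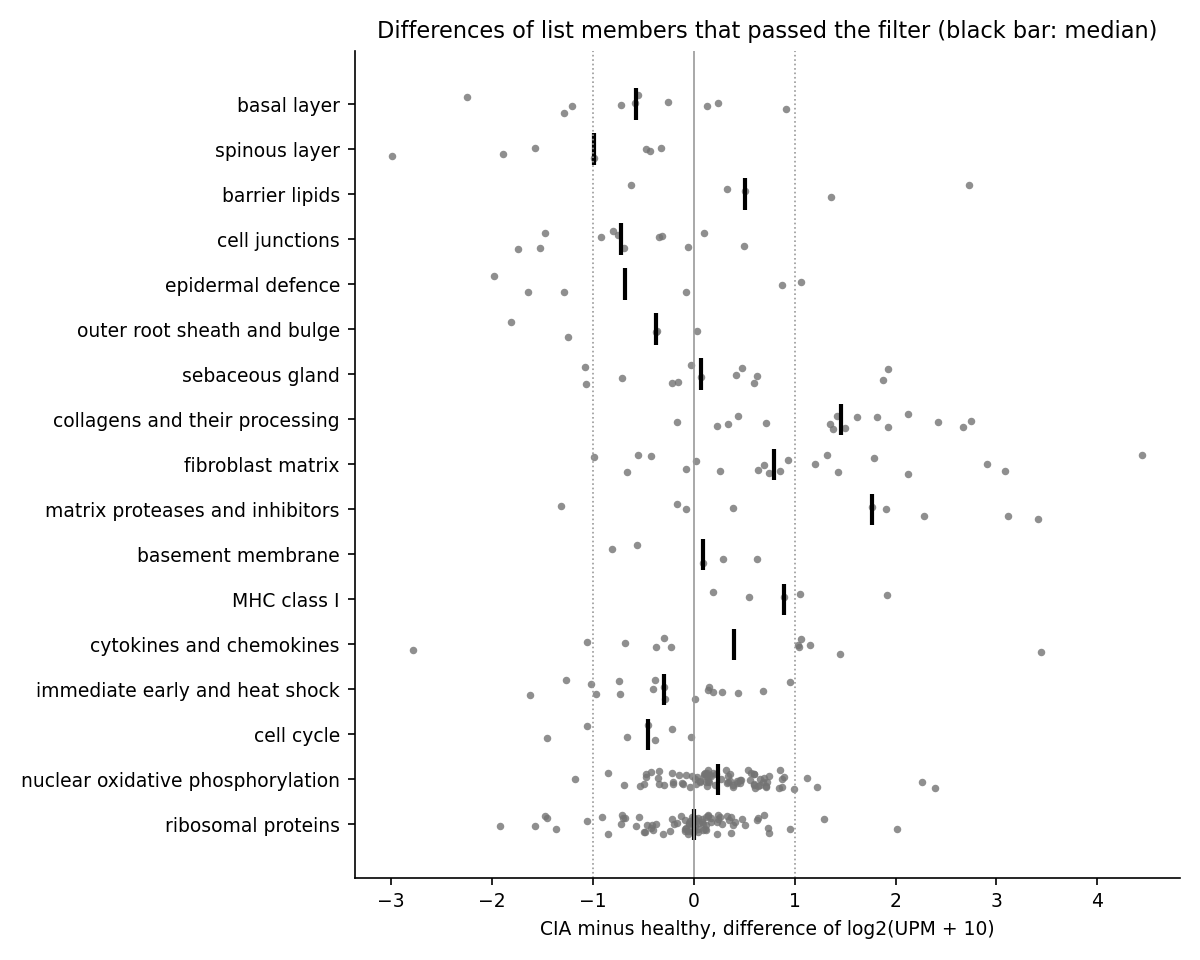
Difference of each list member that passed the filter, CIA minus healthy on the log2(UPM + 10) scale; each point is 1 gene, black bars are list medians and dotted lines mark 2-fold. Spinous genes all lie below 0 and 15 of 16 collagen genes above 0, while ribosomal proteins centre on 0.

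The follicle programme had no common direction. Of 71 listed genes 62 had a row and 21 passed, of which 3 were higher and 5 lower, with a median of -0.15. The summed level was 7990 UPM in healthy and 9204 UPM in CIA skin. In the outer root sheath and bulge 2 of 5 genes were lower and 0 higher: Krt17 at 290 and 116 UPM and Lrig1, which marks stem cells of the upper follicle, at 49.8 and 7.04 UPM. Krt17 lay within 2-fold (-0.69) with each distinct profile counted once. Sox9, the bulge transcription factor, stood at 583 and 449 UPM and Plet1 at 524 and 537 UPM. Genes of growing hair were low or had no row. Of 13 hair-shaft keratins 8 had no row, and the other 5 were listed at 0 in healthy skin and summed to 19.0 UPM in CIA skin, and the keratin-associated proteins summed to 10.4 and 11.3 UPM. In the inner root sheath only Gata3 passed, at 138 and 116 UPM. In the hair matrix 2 genes passed and lay on opposite sides. S100a3, a calcium-binding protein of the hair cuticle, was listed at 0 in healthy skin and stood at 106 UPM in CIA skin, and the epithelial metallothionein Mt4 at 95.8 and 4.93 UPM.

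Sebaceous genes were evenly divided, with 2 of 13 higher, 2 lower and a median of 0.07. Mgst1 stood at 2021 and 3133 UPM, the desaturase Scd1 at 1053 and 1603 UPM, the lipid carrier Fabp5 at 602 and 635 UPM and Cidea at 245 and 240 UPM. Scd3, a desaturase close in sequence to Scd1, stood at 55.8 and 232 UPM and Acsbg1 at 7.66 and 57.1 UPM. Elovl6 was at 874 and 410 UPM, a difference that was -0.72 with each distinct profile counted once, and fatty acid synthase (Fasn) at 81.6 and 33.8 UPM. The median of the list was -0.53 with each barcode scaled to the same total and -0.88 without the sebaceous-high barcodes described next.

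A small set of barcodes carried most of the sebaceous signal. In healthy skin 14 barcodes had a sebaceous sum of 44681 to 45181 UPM, with 3791 UPM as the highest value among the others. In CIA skin 22 barcodes had 15311 to 33022 UPM, with at most 2359 UPM among the others. These sebaceous-high barcodes, set apart at 10000 UPM after the values were seen, held 2 and 3 distinct profiles. They took 9.89% of the units in healthy and 25.3% in CIA skin, and all lay on the epithelial side described later. Each such profile is already a sum over neighbours, so few independent cells stand behind these values.

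Most genes given next belong to the list that set these barcodes apart, so their levels are a description. Mgst1 stood at 11530 UPM in healthy and 10639 UPM in CIA barcodes and Scd1 at 9437 and 6145 UPM. Elovl6 stood at 8168 and 1596 UPM, Fa2h at 3229 and 859 UPM and Fabp5 at 5449 and 2352 UPM. Scd3 stood at 415 and 921 UPM and Elovl4 at 410 and 1540 UPM. In the CIA library all of the Elovl4 signal came from 12 barcodes with 2 distinct profiles, and outside the sebaceous-high barcodes Elovl4 was at 10.9 UPM in healthy and listed at 0 in CIA skin. The higher library level of Elovl4 therefore moved with both the share of units in these barcodes and the level inside them.

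Among genes with at least 200 UPM in the higher library, 3 beta-defensins were within the 10 largest differences in the lower direction. Beta-defensins are short cationic antimicrobial peptides of epithelia. Defb8 stood at 833 UPM in healthy and 67.6 UPM in CIA skin, Defb7 at 753 and 59.2 UPM and Defb5 at 604 and 50.7 UPM, 12.3-fold, 12.7-fold and 11.9-fold lower. Their signal sat in the same barcodes as the sebaceous genes. In the healthy sebaceous-high barcodes Defb8 was at 8119 UPM, Defb7 at 7504 UPM and Defb5 at 6014 UPM, and in the CIA ones at 268, 234 and 201 UPM, respectively. Outside them Defb8 was at 34.0 UPM in healthy skin, and all 3 were listed at 0 in CIA skin. The difference inside these barcodes was thus larger than in the library as a whole. The 12 beta-defensins of the list were at 0 in lung, muscle, spleen, thymus and lymph node of both mice, and summed to 1.40 UPM in the 2CIA joint library of S1.

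The 3 genes are neighbours on chromosome 8 and are shown here because they moved together. The 120 bases before each start site (RefSeq, GRCm38.p6) are given 5′ to 3′ on the strand of the gene, with each match to TATANAA on either strand in capitals.
Defb5, chr8:19247472-19247591, plus strand: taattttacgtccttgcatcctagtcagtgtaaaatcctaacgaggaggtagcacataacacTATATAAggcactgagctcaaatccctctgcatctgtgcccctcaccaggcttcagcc
Defb7, chr8:19494977-19495096, plus strand: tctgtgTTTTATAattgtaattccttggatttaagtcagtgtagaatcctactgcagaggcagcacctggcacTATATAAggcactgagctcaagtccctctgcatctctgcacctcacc
Defb8, chr8:19447607-19447726, minus strand: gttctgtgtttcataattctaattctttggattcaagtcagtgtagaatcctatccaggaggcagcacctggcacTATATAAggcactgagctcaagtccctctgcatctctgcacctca
Defb7 and Defb8 share an unbroken run of 62 bases around this match, and Defb5 shares a run of 24 bases with each. In the same window 5.05% of 32851 promoters hold TATANAA on either strand. The longest run shared by the transcripts of Defb7 and Defb8 (GENCODE vM21) is 39 bases and by those of Defb5 and Defb8 33 bases, so reads from a shared stretch could have been assigned to either gene, and the 3 values are not fully independent.

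**Figure D3:**
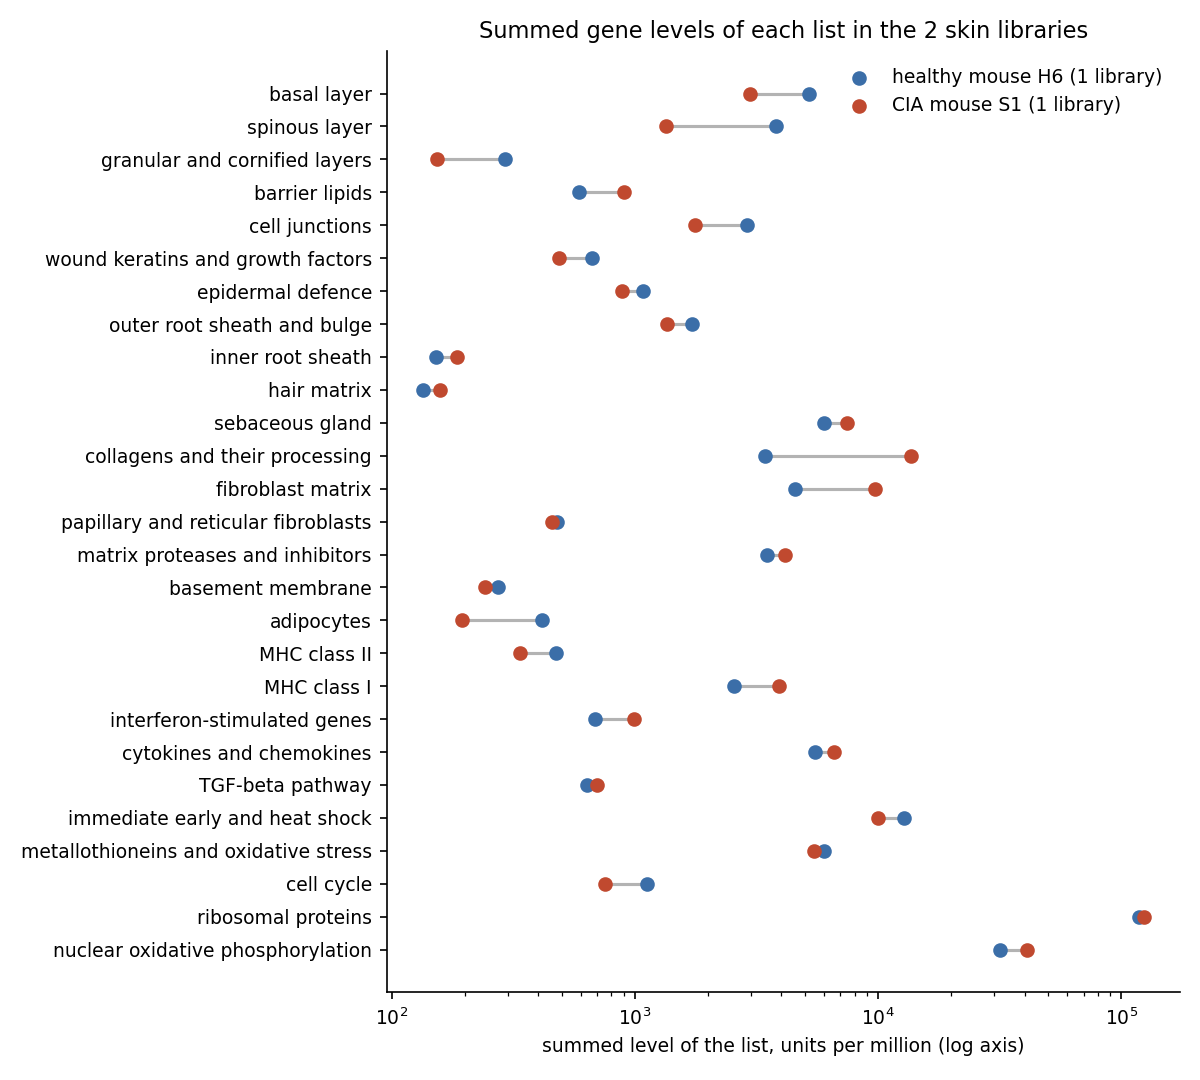
Summed level of each list in UPM (log axis) in the 1 healthy and the 1 CIA skin library, for lists with a mean sum of at least 100 UPM. The collagen list is 3.95-fold higher and the spinous list 2.84-fold lower in the CIA library, while ribosomal proteins differ by 1.05-fold.

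The dermal programme was higher in CIA skin. Of 88 listed genes 87 had a row, 78 were above 0 and 60 passed, of which 26 were higher and 3 lower past 2-fold, against the background shares of 12.3% and 12.8%. The median difference was 0.71, and 0.12 with each distinct profile counted once. The sum went from 12642 to 28311 UPM. Collagens and their processing enzymes had the largest share of higher genes among the dermal lists, 11 of 16, with 0 lower. Their median was 1.46 and their sum 3438 and 13587 UPM. With each distinct profile counted once the median of this list was 0.37.

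Fibrillar collagens were the most abundant genes of the list. Col1a1, the main chain of type I collagen, stood at 1101 UPM in healthy and 5935 UPM in CIA skin, 5.39-fold higher, and went from 2404 to 5437 UPM between the CIA and 2CIA joint libraries of S1. Col1a2, which completes the type I triple helix, stood at 972 and 3722 UPM, 3.83-fold higher. Col3a1, the type III chain of pliable dermis, stood at 670 and 2390 UPM, 3.57-fold higher. Type V and type VI chains also lay higher, with Col5a2 at 85.4 and 233 UPM, Col6a3 at 23.0 and 134 UPM and Col6a2 at 7.66 and 102 UPM. The fibril-associated chains Col12a1, at 42.2 and 130 UPM, and Col14a1, at 27.9 and 106 UPM, did likewise. Lox, which cross-links collagen, stood at 7.66 and 108 UPM and Pcolce, which speeds procollagen cleavage, at 42.7 and 127 UPM. The collagen chaperone Serpinh1 was at 203 and 180 UPM, P4ha1 at 61.3 and 74.0 UPM and Plod2 at 20.8 and 31.7 UPM. With each distinct profile counted once, Col1a1, Col1a2 and Col3a1 differed by 0.78, 0.49 and 0.32, and Col6a2 by 0.94, and were no longer past 2-fold, and Serpinh1 differed by -1.11 and was lower past 2-fold.

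Fibroblast matrix genes were higher in 8 of 20 and lower in 0, with a median of 0.80. With each distinct profile counted once the median was 0.19, and Dcn (0.40) and Sparc (0.25) lay within 2-fold. Lumican (Lum), a proteoglycan that spaces collagen fibrils, stood at 114 and 1039 UPM, 9.12-fold higher. Decorin (Dcn), a related proteoglycan and the most abundant gene of the list, stood at 1461 and 3675 UPM, Sparc, a collagen-binding matrix protein, at 698 and 1901 UPM, and biglycan (Bgn) at 54.7 and 272 UPM. Periostin (Postn) stood at 55.8 and 217 UPM and Fbln1 at 4.93 and 102 UPM. Mfap4, an elastic-fibre protein, was listed at 0 in healthy skin and stood at 208 UPM in CIA skin, where it was above 0 in 32 barcodes with 4 distinct profiles. Not all stromal genes shared this direction. Vimentin (Vim), the fibroblast intermediate filament, stood at 772 and 574 UPM, gelsolin (Gsn) at 546 and 518 UPM, Pi16 at 93.6 and 42.3 UPM and Mfap5 at 122 and 80.3 UPM. Pdgfra, the receptor that marks most dermal fibroblasts, stood at 67.3 and 130 UPM.

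Among matrix proteases and inhibitors 5 of 9 were higher and 1 lower, with a median of 1.77. The median was 0.18 with each distinct profile counted once, 0.67 with no filter and 1.08 at a filter of 100 UPM. Cathepsin K (Ctsk), a collagen-cleaving lysosomal protease, stood at 56.4 and 564 UPM, 9.99-fold higher. Between the CIA and 2CIA joint libraries of S1 alone, Ctsk went from 0 to 223 UPM. Gelatinase A (Mmp2) was at 38.9 and 173 UPM and its activator Mmp14 at 50.9 and 197 UPM. The inhibitors divided, with Timp1 listed at 0 and at 96.5 UPM, Timp2 at 44.3 and 254 UPM and Timp3 at 324 and 124 UPM. Stromelysin (Mmp3), the most abundant protease of the list, stood at 2640 and 2354 UPM. For that reason the sum of the list changed little, from 3479 to 4148 UPM, although most members lay higher. From the CIA to the 2CIA joint library of S1, Timp2 went from 140 to 344 UPM, in the direction of skin. Timp1 went from 923 to 378 UPM and Timp3 from 0 to 401 UPM, opposite to skin. Mmp3 went from 6450 to 724 UPM.

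Fibroblast subtypes and basement membrane showed smaller differences. Of 7 papillary and reticular markers 2 were higher and 1 lower, and their median of 0.38 changed sign with each distinct profile counted once (-0.23), with no filter (-0.24) and at a filter of 100 UPM (-1.61). Ntn1 stood at 11.5 and 76.1 UPM, the WNT inhibitor Wif1 at 32.3 and 88.1 UPM, Crabp1 at 79.9 and 107 UPM, Ly6a at 52.0 and 40.2 UPM and Cd36 at 208 and 61.3 UPM. With each distinct profile counted once Wif1 differed by 0.22, within 2-fold. The Cd36 signal of healthy skin lay mostly in the sebaceous-high barcodes, at 1811 UPM against 32.2 UPM in the others. In the basement membrane 0 of 5 genes passed 2-fold, with Col4a1 at 58.6 and 95.8 UPM, Lama2 at 76.6 and 39.5 UPM and Lamb1 at 35.6 and 45.8 UPM. Of 3 adipocyte genes 0 were higher and 1 lower, Fabp4 at 231 and 85.2 UPM, with Lpl at 125 and 60.6 UPM.

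Of the 10 largest higher differences among genes with at least 200 UPM in the higher library, 3 lay outside the lists. Apod, a lipid-binding protein of fibroblasts, stood at 85.4 UPM in healthy and 629 UPM in CIA skin, Cpxm1, a carboxypeptidase-like secreted protein, at 36.1 and 321 UPM, and Dqx1 was listed at 0 in healthy and at 295 UPM in CIA skin. The Dqx1 signal came from 44 barcodes with 9 distinct profiles. Between the CIA and 2CIA joint libraries of S1 alone, Dqx1 went from 0 to 116 UPM, and Cpxm1 from 0 to 39.2 UPM. Apod hardly differed there, at 166 and 175 UPM. In the other organs of H6 and S1 Dqx1 stood at 230.3 and 29.6 UPM in lung, 218 and 35.4 UPM in spleen, 465 and 293 UPM in thymus and 0 and 28.4 UPM in muscle, and was listed at 0 in lymph node. In the lower direction were Plau, the urokinase that activates plasminogen, at 866 and 106 UPM, the histone demethylase Kdm7a at 202 and 29.6 UPM, the chromatin remodeller Chd1 at 217 and 33.8 UPM and Sertad1 at 227 and 43.0 UPM. Chd1 was also lower past 2-fold in the 2CIA than in the CIA library of blood (-1.27) and lymph node (-1.11) of H4, and Sertad1 in those of blood of H4 (-1.17) and lymph node of S7 (-1.22). In joint of S1 Chd1 (0.76) and Sertad1 (1.79) were higher in the 2CIA library. P-selectin (Selp), an adhesion molecule of endothelium and platelets, stood at 233 UPM in healthy skin and was listed at 0 in CIA skin. Its healthy signal came from 37 barcodes with 18 distinct profiles. Between the CIA and 2CIA joint libraries of S1, Selp went from 118 to 47.1 UPM.

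To separate the tissue compartments, each barcode was placed on the epithelial side when its epidermal and follicle lists summed to more than its dermal lists, and otherwise on the dermal side. In healthy skin 107 of 158 barcodes (67.7%, exact binomial 95% interval 59.8% to 74.9%) were epithelial, and in CIA skin 93 of 150 (62%, 53.7% to 69.8%). The intervals treat barcodes as independent, although smoothed barcodes share neighbours, and are therefore too narrow even for counting error. Of 68 healthy and 62 CIA distinct profiles, 47 and 52 lay on the epithelial side. Within 2-fold of the dividing line lay 34 healthy and 31 CIA barcodes. Of these, 12 healthy and 1 CIA barcode were on the dermal side. The spinous list stood at 723 UPM in healthy and 129 UPM in CIA dermal-side barcodes, so the dermal sides differed in epithelial signal. The dermal side held 51 barcodes with 21 distinct profiles in healthy skin and 57 barcodes with 10 distinct profiles in CIA skin. It took 24.8% and 31.7% of the units. With 1 library per state, the shares are not compared. The highest dermal sum of a barcode was 92981 UPM in healthy and 161136 UPM in CIA skin, and the median over barcodes was 8982 and 7634 UPM.

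**Figure D4:**
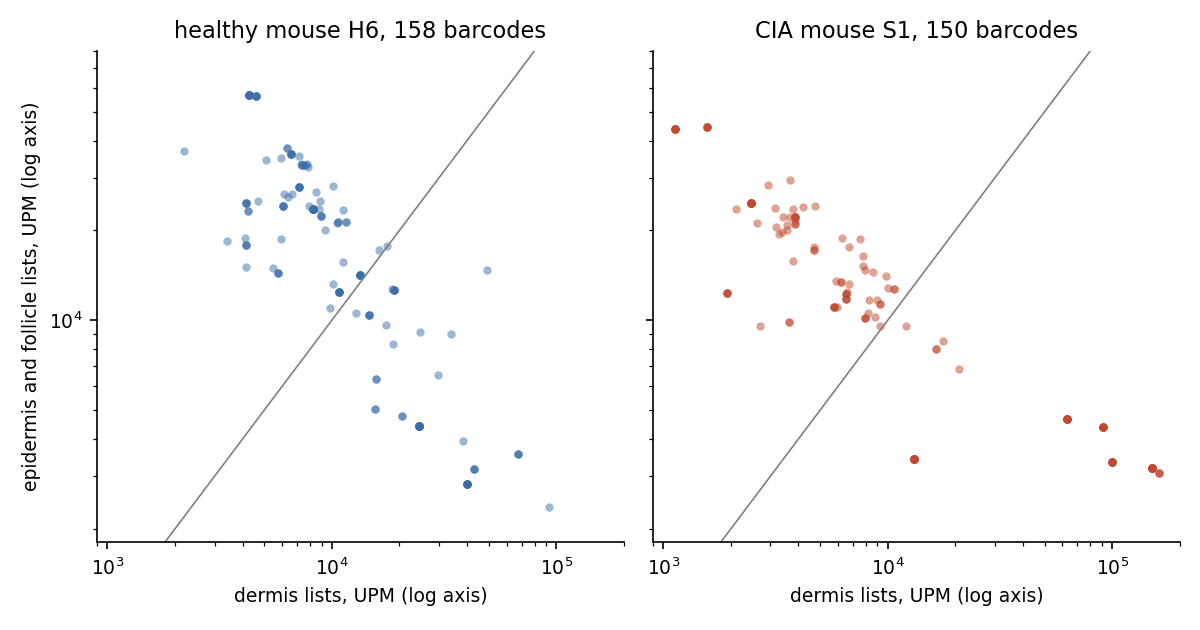
Summed UPM of the epidermis and follicle lists against that of the dermis lists for each barcode (both axes logarithmic; line of equality shown), with 158 healthy barcodes on the left and 150 CIA barcodes on the right. Identical smoothed profiles overlie each other and look darker; dermal-side barcodes of the CIA library reach 161136 UPM and those of the healthy library 92981 UPM.

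Within the dermal side 27.2% of 5858 genes were higher and 24.4% lower in the CIA library, and within the epithelial side 13.7% and 16.4% of 5428 genes. Dermal genes had placed the barcodes, so their levels describe the sides and carry no more than that. The collagen list stood at 8942 UPM in healthy and 40905 UPM in CIA dermal-side barcodes, and at 10404 and 30976 UPM with each distinct profile counted once. On the epithelial side it was at 1624 and 903 UPM. Col1a1 was at 2875 and 18155 UPM on the dermal side and Lum at 276 and 2941 UPM.

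Lists that took no part in placing the barcodes also differed by side. The dermal sides differ in epithelial signal, as given above, and its part in these differences was not tested. MHC class I genes, which load peptides for T cells, were higher in 2 of 5 and lower in 0 over the whole libraries, with a median of 0.90. B2m, the shared light chain, stood at 685 and 1432 UPM, the loading factor Tapbp at 29.0 and 137 UPM and the immunoproteasome subunit Psmb8 at 70.6 and 140 UPM, while the heavy chains H2-K1, at 501 and 735 UPM, and H2-D1, at 1236 and 1410 UPM, lay within 2-fold and have near-identical relatives. B2m was within 2-fold (0.92) with each distinct profile counted once. On the dermal side the list summed to 3124 UPM in healthy and 7089 UPM in CIA barcodes, and on the epithelial side to 2359 and 2431 UPM. Interferon-stimulated genes stood at 698 and 1979 UPM on the dermal and 681 and 534 UPM on the epithelial side. Over the libraries 2 of 4 of these were higher, Ifi27l2a at 18.1 and 146 UPM and Bst2, a membrane protein that tethers viruses, at 15.9 and 96.5 UPM, with Isg15 at 75.0 and 136 UPM and Ifitm3 at 544 and 556 UPM. The median of these 4 was 1.41, and it was 0.74 with no filter and 0.41 at a filter of 100 UPM. MHC class II genes showed no common direction, with H2-Aa at 212 and 74.0 UPM, H2-Ab1 at 137 and 133 UPM and Cd74 at 100.2 and 111 UPM. Their list stood at 1248 and 382 UPM on the dermal and 218 and 318 UPM on the epithelial side.

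Cytokines and chemokines were higher in 6 of 12 and lower in 2, with a median of 0.40 that was -0.26 with no filter and 1.04 at a filter of 100 UPM. Ccl8, which attracts monocytes and T cells, stood at 36.7 UPM in healthy and 498 UPM in CIA skin, 13.6-fold higher, and went from 0 to 44.2 UPM between the CIA and 2CIA joint libraries of S1. Ccl2, the main monocyte attractant, was at 821 and 1700 UPM and Ccl7, its neighbour on chromosome 11, at 506 and 1045 UPM. Cxcl12, which holds leukocytes and stem cells in stroma, stood at 57.5 and 175 UPM, Cxcl14 at 93.6 and 220 UPM and Cxcl2 at 171 and 370 UPM. With each distinct profile counted once the difference of Cxcl12 was 0.18, within 2-fold. From the CIA to the 2CIA joint library of S1, Ccl2 went from 1180 to 419 UPM and Ccl7 from 1060 to 154 UPM. Cxcl12 went from 463 to 237 UPM. All of these moved opposite to their skin differences. Ccl20, which attracts CCR6-bearing cells and is made by keratinocytes, was at 97.5 and 5.64 UPM, and the interleukin-1 receptor antagonist Il1rn at 105 and 45.1 UPM. Cxcl1 stood at 1883 and 1455 UPM and Il6 at 145 and 116 UPM. On the dermal side Ccl8 was at 59.7 UPM in healthy and 1491 UPM in CIA barcodes and Ccl2 at 1898 and 4557 UPM, and on the epithelial side Ccl8 was at 29.1 and 37.1 UPM and Ccl2 at 466 and 373 UPM. Macrophage markers beside these chemokines summed to 159 and 153 UPM on the dermal and 88.1 and 167 UPM on the epithelial side. With each distinct profile counted once the dermal-side sums were 313 and 560 UPM. The part of macrophages in the chemokine levels was not tested.

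**Figure D5:**
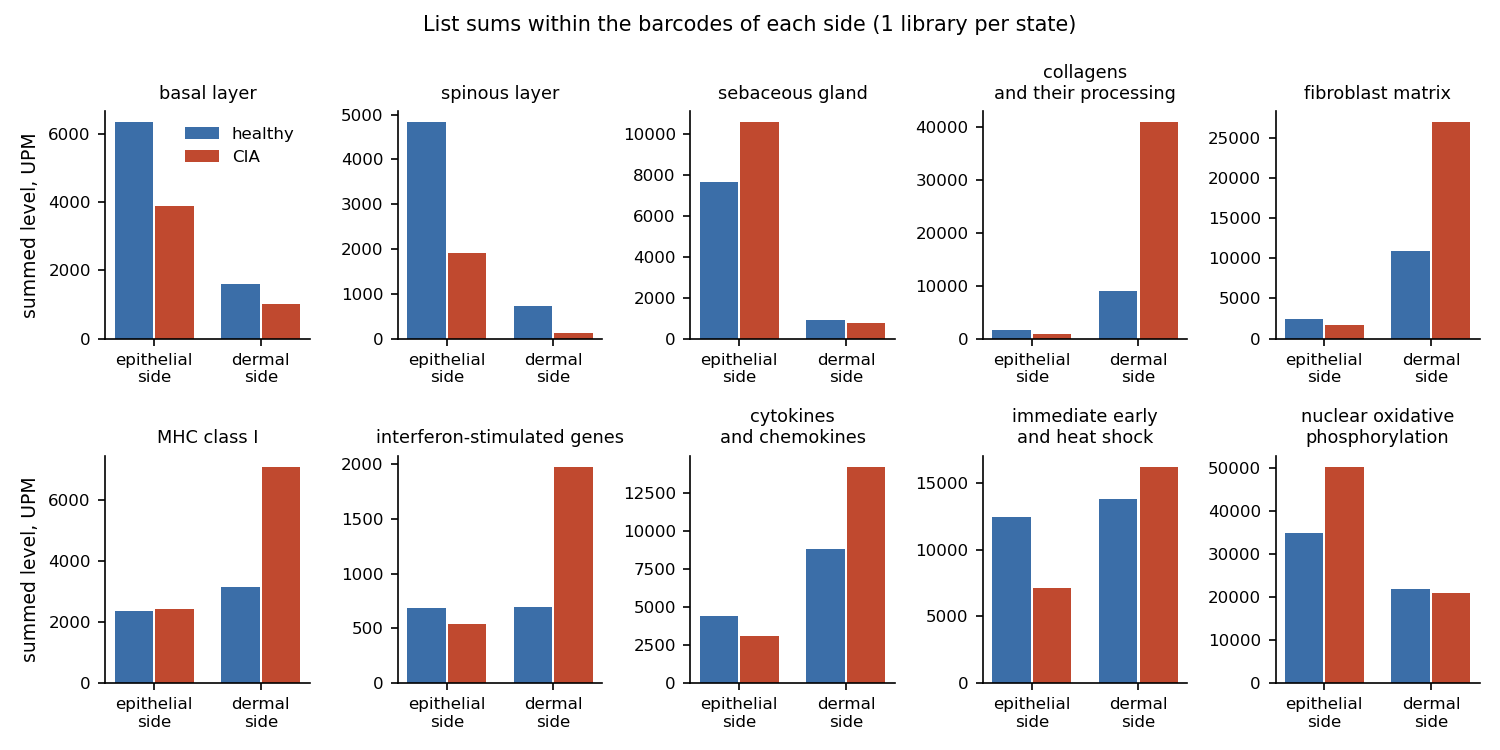
Summed UPM of 10 lists within epithelial-side and dermal-side barcodes of the healthy and the CIA library (1 library each, bars from 0). MHC class I, interferon-stimulated and cytokine lists are higher in CIA on the dermal side, at 7089, 1979 and 14279 UPM, and oxidative phosphorylation is higher on the epithelial side, at 50451 UPM.

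Other pathways shared by all cells are given next. Ribosomal proteins had a median of 0.01, with 2 of 83 higher and 6 lower, and members with processed copies in the genome, such as Rpl3 at 6.02 and 54.9 UPM and Rpl24 at 99.6 and 19.0 UPM, are uncertain. Rpl24 lay within 2-fold (-0.53) with each distinct profile counted once. Nuclear genes of oxidative phosphorylation had a median of 0.24, with 4 of 82 higher and 1 lower and a sum of 31667 and 41107 UPM. The supercomplex factor Cox7a2l was at 31.8 and 209 UPM. That list stood at 70663 UPM in healthy and 74043 UPM in CIA sebaceous-high barcodes, at 29501 and 36608 UPM in the other epithelial-side barcodes and at 21820 and 20981 UPM on the dermal side. Sebaceous-high barcodes took 9.89% of the units in healthy and 25.3% in CIA skin, and their part in the sum was not tested. Immediate early and heat shock genes, which respond within minutes to handling, were higher in 0 of 18 and lower in 3, Klf4 at 633 and 199 UPM, Atf3 at 918 and 376 UPM and Zfp36 at 325 and 155 UPM, with Fos at 864 and 700 UPM and Jun at 1027 and 1176 UPM. Zfp36 lay within 2-fold with each distinct profile counted once (-0.65), with each barcode scaled to the same total (-0.88) and without the sebaceous-high barcodes (-0.71). Their sum was 12434 and 7112 UPM on the epithelial and 13859 and 16265 UPM on the dermal side. Their part in the other differences was not tested.

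Cell cycle genes were higher in 0 of 7 and lower in 2, with all 7 below 0 and a median of -0.45. Mki67, a marker of dividing cells, stood at 71.2 and 19.7 UPM, Stmn1 at 41.6 and 14.8 UPM and Top2a at 81.6 and 47.9 UPM. Under the same 3 alternatives as for Zfp36, in that order, Stmn1 was within 2-fold (-0.52, -0.64 and -0.91) and Top2a was lower past 2-fold (-1.18, -1.13 and -1.62). The TGF-beta pathway had 2 of 9 higher and 2 lower, a median of 0.41 that was -0.39 at a filter of 100 UPM, with the receptors on opposite sides: Tgfbr1 stood at 25.2 and 83.8 UPM and Tgfbr2 at 54.2 and 19.0 UPM. Smad4, which carries the signal to the nucleus, was at 40.5 and 104 UPM, a difference that was 0.47 and within 2-fold with each distinct profile counted once. In the metallothionein and oxidative stress list 1 of 10 was higher and 1 lower, the ferritin light chain Ftl1 at 742 and 293 UPM and Srxn1 at 17.0 and 47.9 UPM.

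The epithelial side was also read without the sebaceous-high barcodes. In the remaining 93 healthy and 71 CIA epithelial-side barcodes Krt5 stood at 982 and 1002 UPM, Krt14 at 1054 and 948 UPM and Sox9 at 729 and 763 UPM. Krt10 there was at 366 and 52.4 UPM, Krtdap at 3919 and 1553 UPM, Col17a1 at 354 and 103 UPM, Gja1 at 691 and 190 UPM and Plau at 1197 and 129 UPM. The spinous list stood at 5466 and 2706 UPM and the basal list at 7156 and 5227 UPM. The cell junction list stood at 3594 and 2495 UPM. Most of these genes also placed the barcodes, so the values describe them and are no test.

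Markers of rarer cells were low throughout. Dct, a pigment-cell enzyme, was among the same 10 higher genes, at 7.66 UPM in healthy and 201 UPM in CIA skin. It was above 0 in 74 CIA barcodes with 37 distinct profiles, 285 UPM on the epithelial and 20.0 UPM on the dermal side. Of the 6 melanocyte markers 4 were above 0, Mlana, at 33.8 UPM, and Tyr in CIA skin alone, with Pmel and Tyrp1 at 0. The neutrophil-list gene S100a8, which stressed keratinocytes also express, stood at 11.5 and 91.6 UPM, with S100a9 listed at 0 and at 9.16 UPM and Ly6g, Csf3r and Cxcr2 at 0. Endothelial markers summed to 172 and 63.4 UPM, and Pecam1, at 52.0 UPM in healthy skin, was listed at 0 in CIA skin, as was Cdh5. Cd207, the langerin of Langerhans cells, was at 32.8 UPM in healthy skin and listed at 0 in CIA skin. The muscle actin Acta1 stood at 53.1 and 1.41 UPM, and the globin Hbb-bs at 15.9 and 47.9 UPM.

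The same 2 mice also gave lung, muscle, spleen, thymus and lymph node, with the same suffixes, and S1 gave joint. The collagen sum was 334 UPM in healthy and 7337 UPM in CIA muscle, 260 and 70.3 UPM in lung, 31.7 and 38.5 UPM in lymph node, and 7264 and 22987 UPM in joint of H3 and S1. Both libraries of that joint pair carry the suffix 2CIA. The joint of S1 was at 9659 UPM in the CIA library and 22987 UPM in the 2CIA library, so that 2 libraries of 1 mouse differed in the same direction as skin. The median of the interferon-stimulated genes was 1.41 in skin, 3.04 in lung, 1.57 in muscle, 1.63 in spleen, 2.94 in lymph node, 1.73 in joint of H3 and S1 and -0.22 in thymus. Between libraries of 1 mouse it was -0.29 in blood of H4, 0.29 in joint of S1, -0.11 in lymph node of H4 and 0.10 in lymph node of S7. The organs share the mice, so these values are not independent of each other. The spinous list, lower in skin, stood at 317 UPM in joint of H3 and 237 UPM in the 2CIA joint of S1, at 112 and 14.7 UPM in lymph node and at 0 and 152 UPM in lung of H6 and S1.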

How the data were processed

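Seq-Well libraries of skin from 1 healthy and 1 CIA mouse were read from the pilot table of 8 organs. By the study's methods, the authors aligned reads to GRCm38 with STAR, counted UMIs with Drop-seq tools, filtered cells and smoothed values over nearest neighbours. Whether neighbours were taken within 1 library is not given there. No doublet caller was run here. The methods name an upper limit on transcripts for a later analysis of 5 organs, and whether it was applied to this table is not given in the sources used here. The submitters' processing notes also list GRCh38 and mm9, with no role given. The deposited values are a whole-number signal, not raw counts and not scaled, so no count model, counting interval or detection limit was applied to levels. Exact binomial intervals are given for shares of barcodes alone. Column totals in skin ran from 5485 to 21643 units. Of 23013 rows named by Entrez number, 21404 matched a symbol in a RefSeq gene table (GRCm38.p6), and rows without a symbol held 2.47% and 2.66% of the skin units. There were 0 mitochondrial rows. Listed genes without a row, and Entrez rows without a symbol, were not analysed here.

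Units were summed per library and scaled to 1000000 (numpy 2.4.6, pandas 2.3.3). The steps for gene differences and scaling factors were tested on 1 simulated pair of bulk profiles. That pair did not model smoothing, barcodes or sides. Members and lists were chosen with earlier results of these data known, and the beta-defensin, CC chemokine, sterol and plasminogen lists and the sebaceous-high barcodes after the values were seen. The rule for named genes took up to 10 per direction with a symbol and at least 200 UPM in the higher library, up to 3 per list by size of difference and up to 4 per epidermal, follicle or dermal list by level. Other members are named to complete a list. The design has 1 library per state and no test. The lymph node pair of the same mice was added after the other pairs. Of the alternatives 8 were planned and 1 was added.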

Additional observations from a re-analysis of the deposited data

How the results depend on the processing

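The comparison was repeated with trimmed-mean and median-of-ratios scaling, with a total that left out the 10 highest genes, with a pseudocount of 1, with no filter, with a filter of 100 UPM, with each distinct profile counted once, with each barcode scaled to the same total, and, chosen after seeing the data, without the sebaceous-high barcodes. The number of higher genes, 691, became 2074 with no filter and 127 at 100 UPM, and the number of lower genes, 721, became 2179 and 137, which follows from the number of genes tested, 13963 and 1859. Under the other 7 alternatives the counts ran from 651 to 872 and from 750 to 921. The epidermis median stayed negative (-0.61 to -0.28) and the dermis median positive, from 0.12 with each distinct profile once to 1.34 at 100 UPM. The follicle median, -0.15, changed sign with each distinct profile once (0.15) and with no filter (0.047), and was lowest with each barcode scaled to the same total (-0.53) and without the sebaceous-high barcodes (-0.70). Of the 20 genes with the largest differences among those with at least 200 UPM in the higher library, Col1a1 alone left the 2-fold range under any alternative in which it passed the filter (0.78 with each distinct profile once), and Elovl4, Defb5, Defb7 and Defb8 did not pass the filter without the sebaceous-high barcodes. The medians of the collagen, fibroblast matrix, protease and spinous lists moved to 0.37, 0.19, 0.18 and -0.40 with each distinct profile once, and the granular list, -0.51, moved to -1.16 with each barcode scaled to the same total. The medians of lists that changed sign under at least 1 alternative were those for cytokines, TGF-beta, papillary and reticular fibroblasts, sebaceous gland, inner root sheath, pericytes, basement membrane, MHC class II, Langerhans and dendritic cells, Schwann cells, oxidative stress and ribosomal proteins. Counting each distinct profile once took 20 of 124 named genes within 2-fold, among them Col1a2, Col3a1, Dcn, Sparc, Sfn, Cdh1, B2m, Krt16, Krt17, Stfa3, Wif1, Cxcl12, Smad4, Zfp36 and Stmn1. Gclm passed 2-fold in the lower direction under 3 alternatives (-3.40 to -1.47), and Isg15 in the higher direction under 2 (1.05 and 1.04). The deposited signal has no depth from which a limit of detection could be derived.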

Other observations

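Genes of further groups were read after the values were seen, and their lists were chosen for that reason. Sterol synthesis genes, which sebocytes and keratinocytes use to make cholesterol, were lower in 6 of 16 and higher in 0, with a median of -0.88. Hmgcs1, an early enzyme of the pathway, stood at 447 UPM in healthy and 116 UPM in CIA skin, Insig1, which senses sterols, at 297 and 83.1 UPM and Fdft1 at 147 and 55.7 UPM, whereas Cyp51 was at 151 and 156 UPM. The list stood at 21421 UPM in healthy and 4661 UPM in CIA sebaceous-high barcodes, and at 1106 and 496 UPM in the other epithelial-side barcodes.

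The plasminogen system was lower in 4 of 6 genes and higher in 0, with a median of -1.21 and a sum of 4748 and 1765 UPM. Serpinb2, an inhibitor of urokinase made by keratinocytes, stood at 2687 and 1126 UPM and Serpine2 at 622 and 230 UPM. The urokinase receptor Plaur, at 355 and 180 UPM, lay within 2-fold. Tissue plasminogen activator (Plat) was at 20.3 and 40.9 UPM. CC chemokines were higher in 3 of 5 and lower in 1, with a sum of 1536 and 3324 UPM. On the dermal side this list was at 3127 and 8771 UPM and on the epithelial side at 1012 and 795 UPM.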
